A study of Drosophila melanogaster with 6 samples.

Results

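The genes described here are 10 transcription regulators of muscle identity and muscle progenitors in Drosophila melanogaster: lmd, Mef2, twi, nau, vg, salm, ap, Him, zfh1 and eya. They were found by gene symbol in a deposited table of 13517 genes, and all 10 were listed. RNA was sequenced from muscle-enriched lysates of late larvae of the third instar, in 3 samples per group, each a pool of 7 to 10 larvae. The labels disagree on the stage: the tissue field names adult body wall, but the protocol and the series' design name larvae, which is followed here. Control larvae had the genotype Mhc-Gal4>UAS-mCherryRNAi, an interfering RNA against a fluorescent protein gene that flies lack. Knockdown larvae had the genotype Mhc-Gal4>UAS-twinstarRNAi, which targets twinstar (tsr), the gene for the actin-severing protein cofilin. Both groups thus carried the same driver, whose Mhc (myosin heavy chain) promoter is active in differentiated muscle and not in undifferentiated myoblasts. The labels used here give neither the RNAi lines nor the insertion sites of the transgenes.

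In the fly embryo, twi, a basic helix-loop-helix factor, sets up the mesoderm. Mef2, a MADS-box factor, then switches on the genes of differentiated muscle, and lmd, a zinc finger protein of the Gli family, is needed in fusion-competent myoblasts, where it activates Mef2. Larval muscles last until metamorphosis, while pools of undifferentiated adult muscle progenitors keep twi on and are held back from differentiating by Notch signalling, zfh1 and Him. Identity factors such as vg, ap, salm and nau distinguish one muscle from another.

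The outcome among the 10 genes was uneven. The lmd transcript was close to absent in control lysates and abundant in knockdown lysates, a 156-fold difference of group means. The nau transcript was 1.91 times as high in the knockdown, with no overlap between groups, and the other 8 genes had overlapping groups. The 10 genes were proposed with this contrast in view, so their differences are given as a description without p-values. "Called" below means an adjusted p-value under 0.05 in the limma fit over all 11720 genes averaging 10 or more scaled counts, a filter that all 10 genes passed. Of the 10, 1 (lmd, higher in the knockdown) was called, where 11.6% of all tested genes were called, 4.58% as higher and 7.02% as lower. The groups did not overlap in 2 of the 10 (lmd and nau, both higher), where this held for 36.4% of all tested genes, 16.8% higher and 19.6% lower. The median log2 difference was -0.02 over the 10 genes and 0.06 over all tested genes.

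**Figure D1:**
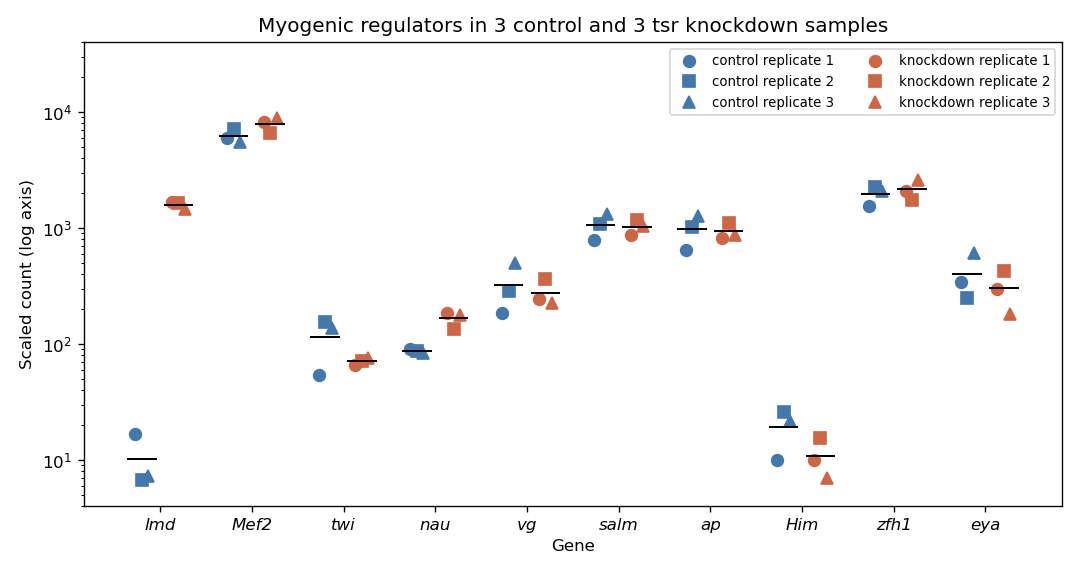
Scaled counts (log axis) of the 10 regulators in each of 3 control and 3 knockdown samples, with black bars at the group means. The lmd control samples lie between 6.73 and 16.7 and its knockdown samples between 1451 and 1677, whereas Mef2 and 7 others have overlapping groups.

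Some facts of the libraries bear on these values. The 6 libraries held 37138289 to 41900871 reads in genes. Across tested genes, which are not independent, control replicate 2 correlated with the other controls at r of 0.759 and 0.813, against 0.959 to 0.963 among knockdown samples. Control replicates 1 and 3 correlated with each other at 0.951. With the knockdown samples, control replicate 2 correlated at 0.812 to 0.850. The targeted gene tsr had 39133, 29266 and 25816 scaled counts in controls against 6966, 7070 and 5035 in the knockdown. This left 20.2% of the control mean (log2 difference -2.30, SE 0.21, limma adjusted p = 0.00525). The exact two-sided permutation test gave p = 0.1, the smallest that 3 samples against 3 allow. Muscle transcripts were abundant: Mhc had 557851 to 923059 scaled counts in controls and 1095026 to 1557535 in the knockdown. The lysates also held RNA of other tissues. The summed level of 10 neuronal markers ran from 7551 to 11727 in controls and from 22934 to 25694 in the knockdown. All 10 were higher in every knockdown sample than in every control, where this held for 16.8% of all tested genes. In lysates, fewer cells of a type and less RNA per cell cannot be told apart.

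The gene lmd (FBgn0039039) lies on the minus strand of chromosome arm 3R, from 23021222 to 23026713 in the BDGP6 (dm6) annotation, and no other annotated gene overlaps it. Its scaled counts were 16.7, 6.73 and 7.22 in control replicates 1 to 3, resting on 15, 6 and 8 reads. In knockdown replicates 1 to 3 they were 1677, 1662 and 1451, resting on 1681, 1810 and 1249 reads. The 3 knockdown samples lay close together, and the lowest of them was 87.0 times the highest control. The means were 10.2 ± 5.60 and 1597 ± 127 (SD, n = 3 per group). On the log2(value + 1) scale, the knockdown was higher by 7.26 with a standard error of 0.38. The added 1 shrinks this value slightly because the control level is low. Only 19 of the 11720 tested genes had a larger log2 rise, 15 of them called. The call for lmd held in all 10 alternatives on 6 samples, with log2 differences from 6.72 to 7.34, and in all 6 fits on 5 samples, each with one library left out, from 7.05 to 7.64.

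Divided by exon length, the lmd level moved from the bottom of the tested genes to above their middle. It was 3.04 ± 1.67 scaled counts per kb of exon in controls, at percentile 1.16 of the tested genes. In the knockdown it was 476 ± 37.7 per kb (SD, n = 3), at percentile 69.9. The filter uses the mean over both groups, so genes low in both were left out. Both percentiles rank lmd only among genes that passed it. Among the 10 regulators, lmd had the lowest level per kb in controls and the second highest, after Mef2, in the knockdown.

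The chromosomal surroundings of lmd were described next, a choice made after its values were seen. Besides lmd, 18 listed genes start within 50 kb of its start site, and 13 of them were tested. Of the 13, 11 had a log2 difference above 0, where 6317 of all 11720 tested genes did. The median was 1.03, against 0.06 over all tested genes. The filter uses the mean over both groups, so it kept genes near 0 in controls, such as CG13837. It left out CG17119, 32.2 kb away, with 12.2, 3.36 and 7.22 scaled counts in controls and 0 in each knockdown sample. Also left out was asRNA:CR43454, higher in every knockdown sample than in every control, and the other untested genes had overlapping groups. The sign count and the median cover only genes that passed this filter. Called were 3 of the 13, where 11.6% of all tested genes were: Nha2, a sodium/proton exchanger gene, and CG17111 were higher by 1.58 and 2.19, and Ublcp1, a phosphatase gene, was lower by a log2 difference of -0.61 (limma adjusted p = 0.0214, 0.0158 and 0.0366). They start 28.2, 40.5 and 34.8 kb away. The nearest tested start site is that of CG13833, 8.85 kb away, which had 22.2, 12.3 and 9.03 scaled counts in controls and 25.9, 33.1 and 16.3 in the knockdown. Its groups overlapped. On the other side, CG6688 and CG34375 start 14.3 and 16.2 kb away and had log2 differences of 3.54 and 2.30 (limma adjusted p = 0.0794 and 0.09). CG6688 did not exceed 5.61 scaled counts in a control and had 14.0, 85.4 and 31.4 in the knockdown. CG13837, at 17.3 kb, had 0 to 1.11 in controls and 18.0, 16.5 and 32.5 in the knockdown, a log2 difference of 3.81 (limma adjusted p = 0.062). No tested gene in the window had a difference as large as that of lmd, and no neighbour closer than 28.2 kb was called. Besides CG13833, the groups overlapped in sav and asRNA:CR46089. In every other tested neighbour they did not overlap, and only Ublcp1 was lower among these. Over all tested genes, groups did not overlap in 36.4%, 16.8% as higher and 19.6% as lower.

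**Figure D2:**
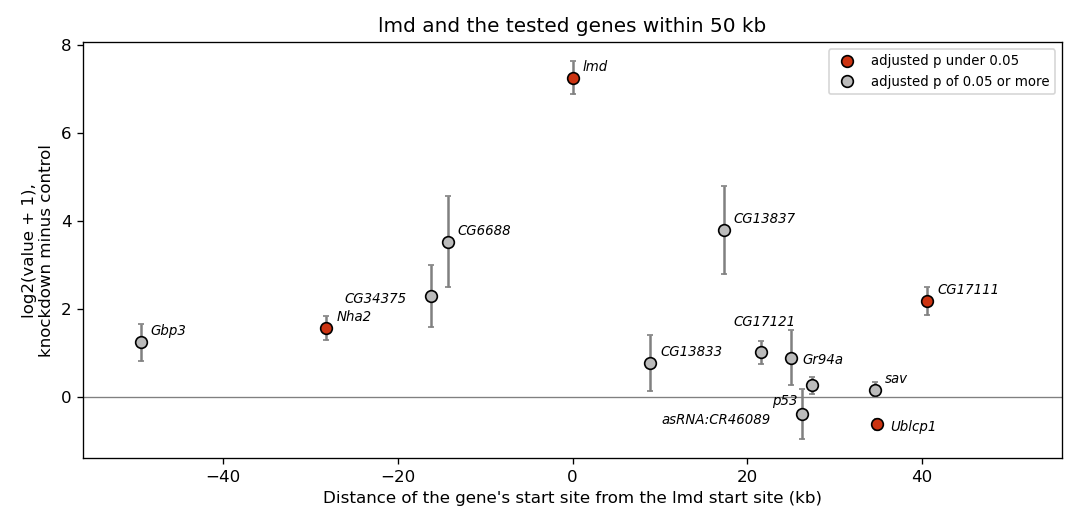
Log2 difference (knockdown minus control, bars are the standard error, n = 3 per group) of lmd and the 13 tested genes within 50 kb, by the distance of each start site from that of lmd in kb. Negative distances are towards lower coordinates, which is downstream of lmd. The point for lmd is at 7.26 and the highest neighbour, CG13837, at 3.81; filled red points were called.

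Genes whose values followed lmd most closely across the 6 samples were sought among 9664 genes with a mean of at least 50. By Pearson r on log2(value + 1), the 5 closest were CG10428, Antp, CG17321, CG9757 and Shawl, with r from 0.995 to 0.998. With n = 6 in 2 groups, such an r mostly restates that both genes differ between groups and vary little within them. The size of the difference was smaller in each of them. CG9757 was highest with a log2 difference of 3.43, and Antp, a homeotic selector gene of the thorax, was lowest with 0.72, from 289, 265 and 278 scaled counts to 463, 445 and 467.

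Among the differentiation factors, Mef2 (chromosome arm 2R) was the most abundant regulator in both groups, at 676 ± 92.3 scaled counts per kb in controls and 862 ± 127 in the knockdown (SD, n = 3). Its scaled counts were 6025, 7142 and 5479 in controls and 8303, 6605 and 8849 in the knockdown. Knockdown replicate 2 was below control replicate 2, so the groups overlapped, and the log2 difference was 0.35 with a standard error of 0.16. Mef2 was not called in any of the 16 alternatives. Its sign depended on the scaling. When each sample was rescaled to the median of 20 muscle structural genes, the Mef2 difference was -0.22, while the median of all tested genes moved to -0.50. Relative to the structural genes, the log2 level of Mef2 was -4.64 ± 0.24 in controls and -4.86 ± 0.05 in the knockdown (SD, n = 3), a difference smaller than the control spread.

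The gene nau (FBgn0002922) encodes the only fly member of the MyoD family of helix-loop-helix factors. It lies on the minus strand of 3R, from 23712814 to 23718357 (BDGP6). Its scaled counts were 91.1, 86.3 and 83.0 in controls and 185, 136 and 178 in the knockdown. All 3 knockdown samples were above all 3 controls, and the controls differed by a factor of only 1.10. The log2 difference was 0.92 with a standard error of 0.24, and nau was not called by limma. DESeq2 called it at 0.93, where that tool called 25.0% of genes, and so did limma without control replicate 2, at 0.91, where 28.6% of genes were called. Under either setting 2 of the 10 regulators were called. Rescaling to the muscle structural genes left a log2 difference of 0.35. Of its exon bases, 26.4% are shared with CG10300 on the other strand, whose scaled counts were at most 6.67 in any sample.

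Of the factors of undifferentiated myoblasts, twi and Him were low and zfh1 was not. The twi transcript (2R) had 54.5, 155 and 136 scaled counts in controls and 65.8, 71.6 and 75.5 in the knockdown. The knockdown values were close to each other and inside the control range, above control replicate 1 and below the other two. The log2 difference was -0.56 with a standard error of 0.45, and it was not called in any alternative. It was -1.02 without control replicate 1, -0.28 without control replicate 2 and -0.37 without control replicate 3. In the annotation, 12.2% of its exon bases are shared with other genes. Him (chromosome X), an inhibitor of Mef2 activity, had 10.0, 25.8 and 21.7 scaled counts in controls and 9.97, 15.6 and 6.97 in the knockdown, resting on 6 to 24 reads per sample. The log2 difference was -0.73 with a standard error of 0.71 and the groups overlapped. It was -1.12 without control replicate 1 and -0.48 without control replicate 2. At that depth a difference of this size was not detectable above the spread. The zinc finger and homeodomain repressor zfh1 (3R), which is also expressed in blood cells and motor neurons, was more abundant. Its scaled counts were 1539, 2244 and 2078 in controls and 2110, 1755 and 2601 in the knockdown. The groups overlapped and the log2 difference was 0.14 with a standard error of 0.21. The sign changed without control replicate 1 (-0.02), without knockdown replicate 3 (-0.0037) and after rescaling to the muscle structural genes (-0.43).

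The identity factors vg, salm and ap had nearly equal group means. The scaled counts of vg (2R), which acts with the DNA-binding protein of sd, were 185, 288 and 499 in controls and 242, 361 and 228 in the knockdown. Those of salm (2L), a zinc finger gene that directs fibrillar flight muscle fate, were 796, 1086 and 1319 in controls and 873, 1176 and 1035 in the knockdown. The LIM-homeodomain gene ap (2R), which marks lateral transverse muscles, dorsal wing cells and some neurons, had 644, 1013 and 1268 in controls and 827, 1118 and 870 in the knockdown. In all 3 genes, the knockdown samples lay within the range of the controls. The log2 differences were -0.14, -0.03 and -0.01, with standard errors of 0.40, 0.22 and 0.28. Leaving out control replicate 3, the highest of the controls, turned them to 0.23, 0.13 and 0.20, and leaving out control replicate 1, the lowest, moved them to -0.48, -0.23 and -0.29, none called. Without knockdown replicate 2, the values were -0.34, -0.14 and -0.15. Without knockdown replicate 1, salm and ap were at 0.08 and 0.07. Without control replicate 2 or knockdown replicate 3, ap was at 0.04 and 0.03.

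The coactivator and phosphatase gene eya (2L) works with Six-family proteins in the eye, the mesoderm and the gonad. Its scaled counts were 343, 248 and 610 in controls and 297, 430 and 181 in the knockdown. The groups overlapped, and the log2 difference was -0.39 with a standard error of 0.45. Without control replicate 3 or knockdown replicate 3 it was -0.03 and -0.06, and without control replicate 2 or knockdown replicate 2 it was -0.68 in each fit, never called.

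**Figure D3:**
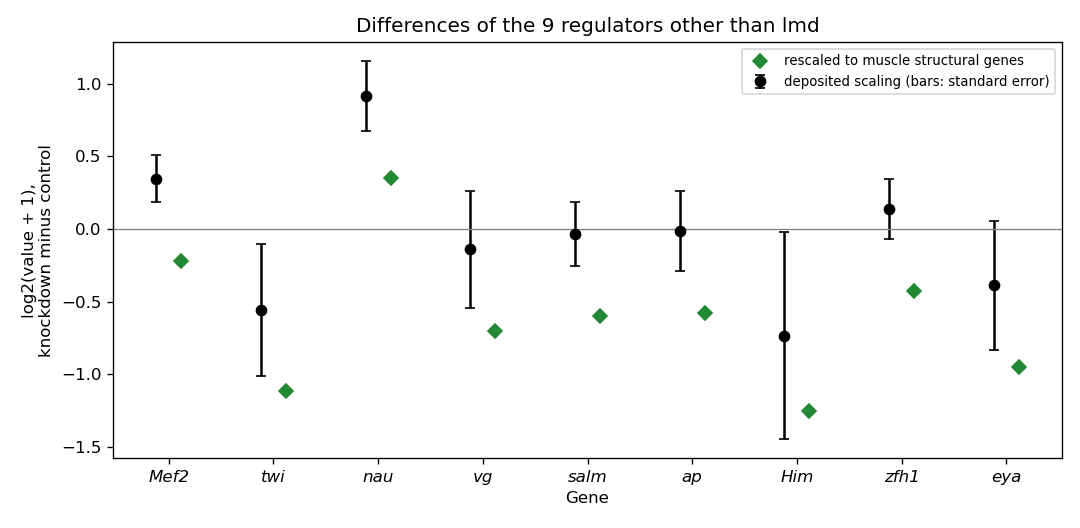
Log2 difference on the log2(value + 1) scale (knockdown minus control) of the 9 regulators other than lmd, as deposited (black, bars are the standard error, n = 3 per group) and after rescaling to 20 muscle structural genes (green). On the deposited scaling nau is highest at 0.92 and Him lowest at -0.73; rescaling lowers every value, and Mef2 and zfh1 change sign.

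Samples of the same group also differed from each other. For lmd, twi, vg, Him and eya the highest control was 2.46 to 2.84 times the lowest. Control replicate 1 held the lowest control value of 6 of the 10 genes, while it held the highest control value of 17 of the 20 muscle structural genes. Within the knockdown, replicate 2 was the highest in vg, salm, ap, Him and eya and the lowest in Mef2, nau and zfh1, and it was the lowest in 19 of the 20 muscle structural genes. Other lists had high values in control replicate 3 and knockdown replicate 2 as well, and nothing here is particular to the regulators. Of 20 Notch pathway genes and E(spl) targets, all 20 were highest in control replicate 3 among controls and 18 in knockdown replicate 2 among knockdown samples. The same held for 6 and 6 of 6 eye disc markers and for 9 and 6 of 10 wing disc markers, while 4 wing disc markers were highest in knockdown replicate 3. Neuronal markers were highest in control replicate 3 in 4 of 10 and in knockdown replicate 2 in 8 of 10. The POU gene nub, chosen from the wing disc markers after its values were seen, had 240, 490 and 738 scaled counts in controls and 373, 699 and 321 in the knockdown, the same order as vg within each group. The summed level of the 10 wing disc markers was 8874, 8965 and 11367 in controls and 10558, 11267 and 12332 in the knockdown, where it was highest in replicate 3, unlike vg and nub. None of the 10 was at 0 in any sample. The part of disc or neuronal tissue in the levels of vg, salm, ap, Him and eya was not tested.

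**Figure D4:**
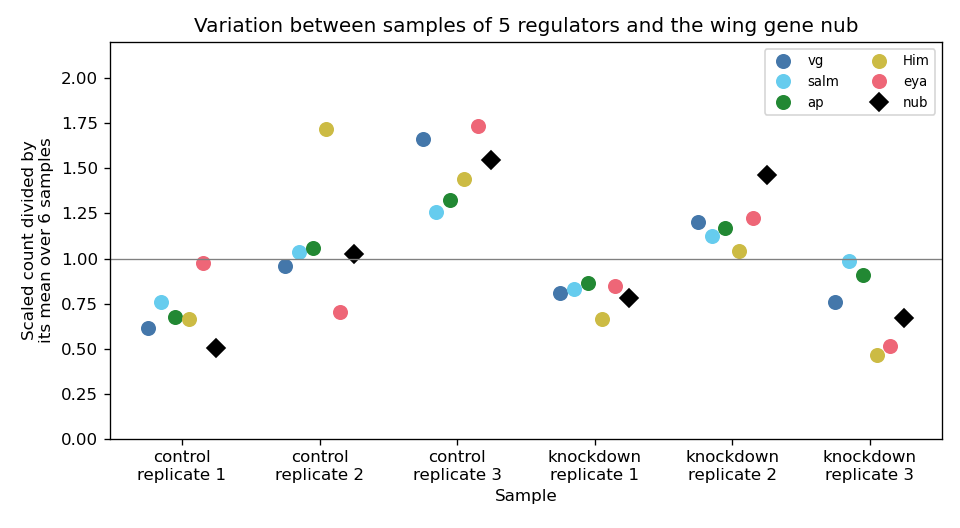
Scaled counts of vg, salm, ap, Him, eya and the wing gene nub in each sample, divided by the gene's own mean over the 6 samples (grey line at 1). In control replicate 1 all 6 genes are below 1 and in knockdown replicate 2 all 6 are above 1; nub runs from 0.503 to 1.55.

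Per kb of exon, the order of control levels was Mef2 (676), zfh1 (283), ap (226), salm (174), eya (109), vg (83.2), nau (56.7), twi (48.2), Him (20.8) and lmd (3.04). Mef2 was apart from the rest, with an SD of 92.3 against 53.3 for zfh1. Neighbours in this order from zfh1 to Him differed by less than the sum of their SDs. In the knockdown, lmd at 476 ± 37.7 stood between Mef2 at 862 ± 127 and zfh1 at 312 ± 61.4 (SD, n = 3).

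Genes that act with these regulators were then examined. Of 15 binding partners and cofactors, 1 was called (6.67%, against 11.6% of all tested genes) and the median log2 difference was -0.05. That gene was HDAC4, a class II histone deacetylase whose vertebrate relatives repress MEF2. It rose from 2146, 2307 and 2203 to 4269, 3530 and 5393 scaled counts, a log2 difference of 0.97 (SE 0.17, limma adjusted p = 0.0221). Its call was lost without control replicate 1, control replicate 3 or knockdown replicate 1, with log2 differences of 0.94, 0.96 and 0.98. The limma adjusted p-values in these fits were 0.0507, 0.0751 and 0.0971. Rescaling to the muscle structural genes left a log2 difference of 0.40, not called (limma adjusted p = 0.123). The replicate block lost the call too (limma adjusted p = 0.0847).

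Of 24 other muscle identity regulators, 21 were tested and 2 were called, both lower (9.52%, against 11.6% of all tested genes), with a median of 0.11. These were hth and exd, whose homeodomain proteins form a complex and act upstream of salm in flight muscle. The hth transcript fell from 10458, 11175 and 10158 to 7048, 6832 and 6886 scaled counts, a log2 difference of -0.61 (SE 0.09, limma adjusted p = 0.0145). Its call was lost without knockdown replicate 1 (-0.63) or 2 (-0.60), and with the replicate block (limma adjusted p = 0.0917). The exd transcript had a log2 difference of -0.39 (SE 0.09, limma adjusted p = 0.0489). Of the 6 fits on 5 samples, 1 kept the call, that without control replicate 2 (-0.43), and in the other 5 it ran from -0.42 to -0.35. On all 6 samples it lost the call in 5 of 10 alternatives: no filter, a minimum mean of 50, the replicate block and both edgeR fits, with adjusted p-values from 0.0505 to 0.171.

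Notch signalling, which keeps adult muscle progenitors undifferentiated, gave no call by limma on the deposited scaling. None of 20 pathway genes and E(spl) targets was called by limma, where 11.6% of all genes were, and the median was -0.14. The 2 genes with the smallest p-values were the Bearded-family genes E(spl)malpha-BFM and E(spl)m2-BFM. The first had 273, 370 and 507 scaled counts in controls and 84.8, 150 and 26.7 in the knockdown, a log2 difference of -2.39 (limma adjusted p = 0.0664). The second had a log2 difference of -1.15 (limma adjusted p = 0.133). In both the groups did not overlap, where this held for 36.4% of all tested genes, 19.6% as lower. At an unadjusted p under 0.05, 2 of the 20 passed. The share of all genes at that cutoff was not counted, so this count cannot be set against other genes. With TMM, edgeR called 0, where it called 365 genes higher and 798 lower. DESeq2 called 1, E(spl)malpha-BFM (-2.14), where it called 25.0% of all genes. Limma after rescaling to the muscle structural genes called 2 of the 20, where it called 270 genes higher and 2863 lower.

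Of 12 myoblast fusion genes, 1 was called (8.33%, against 11.6% of all tested genes) and the median was 0.15. It was kirre, an adhesion protein gene of founder cells, which rose from 166, 154 and 196 to 307, 359 and 365 scaled counts. The log2 difference was 1.0003 (SE 0.19, limma adjusted p = 0.0277). Among the 6 fits on 5 samples, the call was kept in that without control replicate 2 (0.92), and in the other 5 it ran from 0.96 to 1.10. Rescaling to the muscle structural genes left 0.44, not called, and the call was also lost with the replicate block (limma adjusted p = 0.117). The adhesion gene of fusion-competent myoblasts, sns, a partner of kirre in fusion that was named after its values were seen, had 730, 609 and 986 in controls and 1195, 1192 and 1196 in the knockdown. Its groups did not overlap and its log2 difference of 0.65 was not called (limma adjusted p = 0.079). The list was mixed, with 7 of the 12 genes above 0 and 5 below. In 5 of the 12 the groups did not overlap, 3 higher and 2 lower, where this held for 36.4% of all tested genes.

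Structural genes of differentiated muscle, many of them Mef2 targets, had a median log2 difference of 0.64 over 20 genes, with 18 above 0. In 9 of the 20 all knockdown samples were above all controls, where this held for 16.8% of all tested genes. By limma, 1 was called (5%, against 11.6% of all tested genes), the Z-disc gene Zasp66, which was lower, by a log2 difference of -0.81 (limma adjusted p = 0.0492). DESeq2 called 11 of the 20, 10 higher and 1 lower, where it called 25.0% of all genes. Zasp66 lost its limma call in each of the 6 fits on 5 samples, with differences from -0.93 to -0.67. On all 6 samples it lost the call with the replicate block and with no filter (limma adjusted p = 0.16 and 0.0765). Of 3 listed genes of fibrillar flight muscle, whose program salm directs in adults, none was called by limma, edgeR called 0 and DESeq2 called 2. An unadjusted p under 0.05 was reached by 2, a count that cannot be set against other genes because their share at that cutoff was not counted. Act88F, the flight muscle actin gene, had 8.89, 13.5 and 5.42 scaled counts in controls and 40.9, 23.0 and 43.0 in the knockdown (log2 difference 1.86, limma adjusted p = 0.113), and Strn-Mlck, a kinase gene, had a log2 difference of 0.69 (limma adjusted p = 0.0694). DESeq2 called 2 of the 15 binding partners, 5 of the 21 identity regulators and 4 of the 12 fusion genes.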

How the data were processed

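The authors deposited 1 table of scaled counts, a signal in which each gene's reads were divided by a factor common to the sample. Per the submitters' processing notes, the tools were STAR 2.5.0a, Picard and HTSeq 0.5.3 on dm6; the annotation release and strand setting are not given in the sources used here, so reads over genes that overlap cannot be assigned with certainty. Per the labels' protocols, RNA was extracted with Trizol and amplified in library preparation without stated molecular identifiers, so reads are not independent molecules. Rows for reads not assigned to a gene (19.4% to 27.0% of all, by sample) were left out. These held reads that were not uniquely aligned, ambiguous between genes, outside annotated features or not aligned. The columns were whole multiples of 1 step per sample (100% of values within 0.01 of a whole read), so reads could be recovered.

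Samples were grouped by title. Because scaled values are not raw counts, log2(value + 1) was fitted with limma 3.58.1 in R 4.3.3, with a trend. The 11720 genes averaging 10 or more entered, and p-values were Benjamini-Hochberg adjusted over them at a threshold of 0.05. On simulated counts with 200 genes changed 4-fold, the fit recovered 200 with 8 false calls. The simulation gave every gene and library the same spread setting, without a divergent control, so its result does not carry over to these data. The labels give no batch, and they number biological replicates without saying that numbers are shared, so p-values measure the spread between these pools. Alternatives were pseudocounts of 0.5 and 5, a minimum mean of 50 or none, TMM scaling, rescaling to muscle structural genes, a replicate block, leaving out each sample, and edgeR 4.0.16 and DESeq2 1.42.0 on recovered reads. Levels per kb used exon lengths of Ensembl release 115 (BDGP6), whose IDs matched 13478 genes. The members, the gene lists and the tests were chosen with earlier results of these data known. Named were the 10 regulators, tsr, up to 4 called genes per list (the 2 with the smallest p-values where none was called) and the 5 genes most like lmd. Of the flight muscle list, fln and TpnC4 were not analysed here, and aret was matched as bru1. No sequence was used.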

Additional observations from a re-analysis of the deposited data

How the results depend on the processing

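The 10 regulators gave 1 call, lmd, in 14 of the 16 alternatives and 2 calls, lmd and nau, in the other two. The tsr gene stayed called in all 16, with log2 differences from -2.87 to -2.13. The numbers of called genes behind the background shares, 537 higher and 823 lower, were less stable. Rescaling to the muscle structural genes gave 270 higher and 2863 lower, DESeq2 gave 1258 and 1569, and edgeR with DESeq2 size factors gave 340 higher. Leaving out one replicate gave from 41 to 2426 higher and from 143 to 921 lower genes. The lowest counts were those without knockdown replicate 1 and the highest those without control replicate 2. The replicate block gave 24 higher and 88 lower, with lmd and tsr still called. Same-numbered samples are separate pools and the labels do not say that numbers are shared, so the numbers were not treated as pairs. Deviations from the group mean correlated at -0.46 to 0.192 for same-numbered samples, against -0.364 to 0.436 for different numbers. With 3 samples centred in each group, these correlations cannot show whether the samples were paired. The 5 genes called from the lists (HDAC4, hth, exd, kirre and Zasp66) were still called in 38 of 50 results on 6 samples and in 9 of 30 with one replicate left out. The cause was not tested. Depth limits Him and the lmd controls, which rest on at most 24 reads per sample.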

Other observations

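Several other identity regulators had groups that did not overlap without being called, and are named here after their values were seen. The gene kn, a COE-family factor of one dorsal muscle and of some neurons, had 111, 86.3 and 211 scaled counts in controls and 351, 343 and 295 in the knockdown (log2 difference 1.37, limma adjusted p = 0.061). The homeodomain gene ct, high in progenitors of direct flight muscle, had 1898, 2482 and 2104 in controls and 3151, 2557 and 2937 in the knockdown (0.42, limma adjusted p = 0.113). Also higher were eve and bap, each with a log2 difference of 1.46 (limma adjusted p = 0.272 and 0.287). Both rest on few reads, 3 to 12 per control sample and 12 to 23 per knockdown sample. Lower in the knockdown were the T-box gene org-1, with 98.9, 138 and 126 against 62.8, 43.2 and 83.6, and the Iroquois gene ara, with 417, 682 and 721 against 314, 399 and 348. Their log2 differences were -0.96 and -0.74 (limma adjusted p = 0.132 and 0.111). In all, 8 of the 21 tested genes of that list had groups that did not overlap, 4 higher and 4 lower, where this held for 36.4% of all tested genes.

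All 10 neuronal markers and 5 of 6 glial markers were higher in every knockdown sample than in every control, where this held for 16.8% of all tested genes. Of the 10 neuronal markers, 3 were called, where 11.6% of all tested genes were, 4.58% as higher. These were Syt1, futsch and para (limma adjusted p = 0.0315, 0.0316 and 0.031). Among controls, 9 of the 10 were lowest in control replicate 2. Other tissues differed too: 2 of 7 blood cell markers and 1 of 4 fat body markers were called, all lower. Over all tested genes, 7.02% were called lower. No wing disc, eye disc, trachea or testis marker was called. Several of the 10 regulators, among them zfh1, ap and eya, are also expressed in neurons, and the part of neuronal RNA in their levels was not tested.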
